A study of Mus musculus with 18 samples.

Results

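*Treml4*, *Cd300e*, *Ace*, *Adgre4*, and *Slc11a1* are 5 genes typical of nonclassical monocytes, and they are described here in B cell isolates of the spleen and Peyer's patches. They were taken, out of 55491 genes in the deposited table, as the monocyte-type genes with the largest decreases in splenic isolates after treatment with ovalbumin (OVA) nanoparticles. The spleen values of OVA nanoparticle and PBS mice therefore chose them, and these values are given as a description without a test. All mice were female BALB/cJ with a labelled age of 10 to 12 weeks. On days 0 and 14, each was sensitized i.p. with OVA (20 μg) in alum (1 mg). They were treated i.v. on days 28 and 42 with 2.5 mg of OVA nanoparticles (OVA NPs), with 100 μg of soluble OVA, or with 100 μL of PBS, and tissues were taken on day 44. Every group thus carried the OVA-alum sensitization, including the PBS controls. B cells were enriched on magnetic columns by removing other cells (negative selection), so any cell that escaped removal contributed RNA. There were 18 RNA-Seq libraries, with 3 for each of the 6 combinations of tissue and treatment, and the labels call them biological replicates without naming the mouse behind each one. P values therefore measure the spread between these libraries.

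Monocytes circulate in 2 main forms. Classical monocytes (Ly6C high in mice) enter inflamed tissue, whereas nonclassical monocytes (Ly6C low, CX3CR1 high) patrol the vessel wall, depend on the nuclear receptor NR4A1, and are abundant in the spleen. The 5 genes have different roles. *Treml4* encodes an immunoglobulin-family receptor of the TREM locus that binds dying cells. *Cd300e* encodes an activating receptor of the CD300 family. *Ace* encodes angiotensin-converting enzyme, a peptidase that is also a brush border enzyme of the small intestine. *Adgre4* encodes the adhesion receptor F4/80-like-receptor EMR4 of myeloid cells. *Slc11a1* encodes NRAMP1, a metal transporter of the phagosome.

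The sequence just upstream of each start site is shown as a description. The joint decrease of the 5 genes in the spleen follows from their choice, and shared regulation was not tested. By the annotation of GRCm38, *Treml4* lies on chromosome 17 (48264295 to 48275360, + strand), as does *Adgre4* (55749984 to 55853662, + strand). *Ace* (105967945 to 105989964, + strand) and *Cd300e* (115051917 to 115062177, − strand) lie on chromosome 11. *Slc11a1* lies on chromosome 1 (74375195 to 74386062, + strand). The sequences below are the 250 bases before the RefSeq start site in GRCm38.p6, written 5′ to 3′ on the strand of the gene. They cover chr17:48264045-48264294 for *Treml4*, chr11:115062040-115062289 for *Cd300e*, chr11:105967698-105967947 for *Ace*, chr17:55749734-55749983 for *Adgre4*, and chr1:74374953-74375202 for *Slc11a1*. The RefSeq start of *Cd300e* lies inside the gene as annotated above, so part of its window lies within that gene. The windows of *Ace* and *Slc11a1* end a few bases inside theirs. All 5 genes matched the RefSeq table, which holds for *Ace* a further start site inside the gene that is not shown. Capitals mark matches, on either strand, to the core motif of the myeloid factor PU.1 (GAGGAA) or to the C/EBP motif (TTNNGNAA).
Treml4: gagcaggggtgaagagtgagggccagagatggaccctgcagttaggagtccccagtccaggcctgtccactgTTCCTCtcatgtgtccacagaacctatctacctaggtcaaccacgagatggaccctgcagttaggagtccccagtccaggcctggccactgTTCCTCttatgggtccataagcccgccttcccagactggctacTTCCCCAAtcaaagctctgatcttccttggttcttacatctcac
Cd300e: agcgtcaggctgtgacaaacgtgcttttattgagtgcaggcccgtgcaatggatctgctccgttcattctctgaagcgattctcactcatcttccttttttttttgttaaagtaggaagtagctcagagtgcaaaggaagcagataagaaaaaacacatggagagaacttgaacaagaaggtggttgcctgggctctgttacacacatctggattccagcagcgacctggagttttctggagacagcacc
Ace: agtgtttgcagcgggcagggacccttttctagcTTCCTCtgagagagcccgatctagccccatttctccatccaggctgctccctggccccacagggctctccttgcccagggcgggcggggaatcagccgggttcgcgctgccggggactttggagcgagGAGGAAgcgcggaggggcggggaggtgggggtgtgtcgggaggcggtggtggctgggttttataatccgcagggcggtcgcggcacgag
Adgre4: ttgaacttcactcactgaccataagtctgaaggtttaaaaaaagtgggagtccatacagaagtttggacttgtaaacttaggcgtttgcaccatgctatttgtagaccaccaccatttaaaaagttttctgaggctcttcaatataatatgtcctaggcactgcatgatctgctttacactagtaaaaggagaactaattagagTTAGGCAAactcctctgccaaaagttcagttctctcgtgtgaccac
Slc11a1: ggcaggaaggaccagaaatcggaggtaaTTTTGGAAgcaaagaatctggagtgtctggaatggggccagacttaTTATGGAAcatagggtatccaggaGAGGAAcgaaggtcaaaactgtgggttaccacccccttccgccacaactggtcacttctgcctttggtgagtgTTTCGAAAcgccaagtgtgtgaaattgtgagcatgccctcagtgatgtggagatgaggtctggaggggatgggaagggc

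The PU.1 letters were present in *Treml4* and *Ace* with 2 matches each and in *Slc11a1* with 1, and 23.3% of 32851 promoters of this length held at least 1. C/EBP letters were present in *Treml4*, *Adgre4*, and *Slc11a1*, the last with matches at 3 places, and in 36.8% of all promoters. The 1 C/EBP match of *Treml4* began 44 bases before the start site and that of *Adgre4* began 46 bases before it. The NR4A response element (AAAGGTCA), held by 1.34% of promoters, matched none of the 5 windows, and *Cd300e* had a match to none of the 3 motifs. None of the motifs was common to all 5 genes, and these matches are letters in a window, not measured binding.

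The B cell label was checked first. Library totals ran from 14177253 to 30052297 counts, and 3 counts corresponded to 0.0998 to 0.212 CPM (counts scaled to the library total), the smallest level treated as shown, for counting error only. A list of 10 B cell genes, led by *Cd79a*, *Cd22*, and *Pax5*, summed to between 9559 and 11531 CPM in spleen libraries and between 6156 and 8053 CPM in Peyer's patch libraries. A list of 12 T cell genes summed to between 5.73 and 10.5 CPM in the spleen and between 17.0 and 60.8 CPM in Peyer's patches. Myeloid transcripts were present in every isolate, and genes shared by mononuclear phagocytes summed to between 69.2 and 316 CPM in the spleen. In bulk isolates of this kind, fewer cells of a type and less RNA per cell cannot be told apart.

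In the spleen, all 5 genes were highest in PBS mice. Divided by exon length, mean expression in PBS mice was 4.58 CPM per kilobase for *Ace*, 2.43 for *Adgre4*, 1.93 for *Treml4*, 1.18 for *Cd300e*, and 0.624 for *Slc11a1*. The SDs over 3 libraries were 1.15, 0.914, 1.26, 0.211, and 0.297 CPM per kilobase in the same order. Neighbors in this order overlapped within their spread except *Ace* and *Adgre4*, whose lowest and highest libraries were 3.58 and 3.46 CPM per kilobase.

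*Treml4* measured 2.46, 2.34, and 6.74 CPM in PBS replicates 1, 2, and 3, which were 55, 56, and 145 counts. It measured 0.833, 0.691, and 0.746 CPM after OVA NPs, and 0.153, 0.574, and 0.275 CPM after soluble OVA. The 3 groups did not overlap, and the order was PBS, then OVA NPs, then soluble OVA. Mean *Treml4* was 3.85 ± 2.51 CPM (SD, n = 3) with PBS, 5.08-fold above OVA NPs (0.757 ± 0.0713 CPM) and 11.5-fold above soluble OVA (0.334 ± 0.217 CPM).

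*Cd300e* measured 2.50, 2.00, and 2.88 CPM with PBS, against 0.773, 0.173, and 0.707 CPM after OVA NPs and 0.229, 0.319, and 0.330 CPM after soluble OVA. Both OVA groups lay below PBS without overlap but overlapped each other. The counts behind the OVA groups were small, between 3 and 18 after OVA NPs and 5 or 6 after soluble OVA. The PBS mean of 2.46 ± 0.442 CPM (SD, n = 3) was 4.47-fold above OVA NPs and 8.41-fold above soluble OVA.

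*Ace*, the most abundant of the 5, measured 22.8, 18.9, and 30.9 CPM with PBS. After OVA NPs it measured 7.14, 6.74, and 4.16 CPM, and after soluble OVA 1.49, 3.64, and 1.43 CPM. As for *Treml4*, the 3 groups were separate and soluble OVA was lowest. The PBS mean of 24.2 ± 6.09 CPM (SD, n = 3) was 4.02-fold above OVA NPs and 11.1-fold above soluble OVA.

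*Adgre4* measured 7.37, 6.01, and 12.1 CPM with PBS, 2.50, 2.25, and 1.69 CPM after OVA NPs, and 1.18, 2.49, and 0.659 CPM after soluble OVA. *Slc11a1* measured 1.61, 1.75, and 3.58 CPM with PBS, 1.01, 0.518, and 0.471 CPM after OVA NPs, and 0.268, 0.893, and 0.330 CPM after soluble OVA. For both genes, the OVA groups were below every PBS library and overlapped each other. The PBS means were 3.96-fold (*Adgre4*) and 3.47-fold (*Slc11a1*) above OVA NPs, and 5.88-fold and 4.66-fold above soluble OVA.

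**Figure D1:**
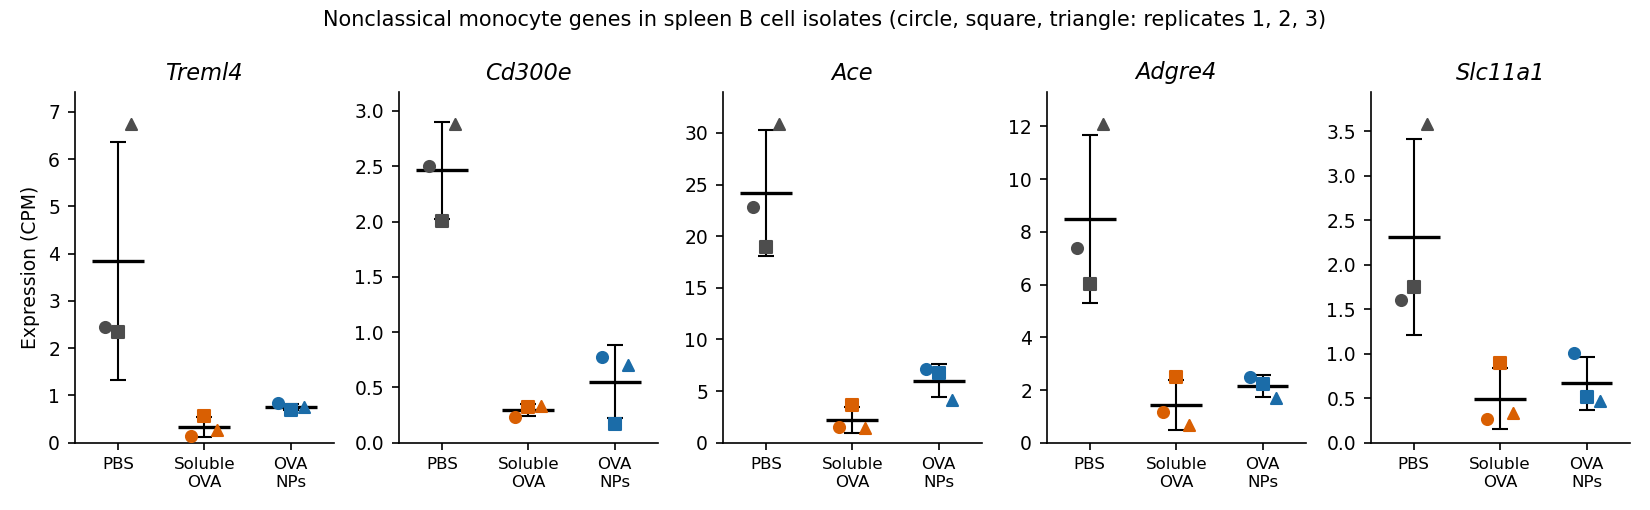
Expression (CPM, linear axis from 0, a separate scale for each gene) of the 5 genes in 9 spleen libraries by treatment; points are libraries, marked by replicate number, and bars are the mean ± SD of 3 libraries. Every PBS point lies above every point of both OVA groups, and PBS replicate 3 is the highest library for each gene.

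PBS replicate 3 was the highest spleen library for all 5 genes, at 1.28 times (*Cd300e*) to 2.81 times (*Treml4*) the mean of PBS replicates 1 and 2. The same library also had the highest sum of phagocyte genes in PBS mice, 316 CPM against 136 and 224 CPM, and of neutrophil genes, 228 CPM against 81.0 and 92.0 CPM. The part of this difference in the results was not tested. Fitted with edgeR over all genes, the log2 fold change of OVA NPs against PBS was −2.31 for *Treml4*, −2.10 for *Cd300e*, −2.02 for *Ace*, −1.98 for *Adgre4*, and −1.80 for *Slc11a1*. The SEs were 0.45, 0.40, 0.25, 0.27, and 0.41 in the same order. Without PBS replicate 3, the median of the 5 moved from −2.02 to −1.64, *Treml4* moved from −2.31 to −1.64, and *Slc11a1* moved from −1.80 to −1.34.

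A gene was called when its adjusted p was under 0.05 and its absolute log2 fold change above 0.25. Of all 14200 genes tested in this comparison 15% were called, 6.35% as lower, and 21.4% had OVA NP libraries that were all below PBS. All 5 genes met both descriptions, which follows from their choice. Just outside the choice came *S1pr5*, a sphingosine 1-phosphate receptor, at −1.75, *Cx3cr1* at −1.65, and *Ifitm6* at −1.58, so that *Slc11a1* (−1.80) was separated from the next gene by less than its SE.

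Soluble OVA was compared with the same PBS libraries, so its values stand beside those of OVA NPs and are likewise given without a test. The fitted log2 fold changes were −3.59 (SE 0.57) for *Treml4*, −3.51 (SE 0.36) for *Ace*, −3.06 (SE 0.37) for *Cd300e*, −2.57 (SE 0.43) for *Adgre4*, and −2.26 (SE 0.48) for *Slc11a1*. Each was further from 0 than the value for OVA NPs, and the median was −3.06. When each library was left out, the value for *Adgre4* ran from −3.11 to −2.22. In this comparison 17.2% of 14128 genes were called, 6.72% as lower, and 20.8% had no overlap and were lower. Between the OVA groups directly, soluble OVA was lower than OVA NPs without overlap for *Treml4* and *Ace*, with fitted values of 1.25 (SE 0.53) and 1.48 (SE 0.36) for OVA NPs over soluble OVA. *Adgre4* stood at 0.58 (SE 0.41), and *Cd300e* and *Slc11a1* were too low in both groups to pass the count filter of this comparison. The OVA NP libraries took part in the choice, so the order of the OVA groups is a description and was not tested. Here 0.238% of 13840 genes were called, and 7.25% were higher after OVA NPs without overlap.

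Across the 9 spleen libraries, the 5 genes followed each other, with Pearson's r of log2 CPM between 0.851 (*Cd300e* with *Adgre4*) and 0.967 (*Ace* with *Adgre4*) and a median of 0.941 over 10 pairs. The libraries share the treatment groups that chose the genes, and the correlations describe that. In the 9 Peyer's patch libraries r ran from −0.481 to 0.653, with a median of −0.0403.

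Other genes of nonclassical monocytes were examined as a list of 16. After OVA NPs, 7 of the 15 tested fell in the spleen and 0 rose, at a median log2 fold change of −0.30 where the median of all genes was 0.00062. The decreases were largest for *Cx3cr1*, the fractalkine receptor that marks these cells, and *Itgax*, which encodes the integrin CD11c. *Cx3cr1* measured 7.19, 5.88, and 10.8 CPM with PBS and 3.75, 2.77, and 1.26 CPM after OVA NPs, without overlap (log2 fold change −1.65, SE 0.39, edgeR adjusted p = 0.0255). *Itgax* measured 6.57, 6.30, and 9.02 CPM with PBS and 4.28, 4.49, and 4.40 CPM after OVA NPs (−0.71, SE 0.18, edgeR adjusted p = 0.0114). The other 5 fell by less than 0.5 on the log2 scale. They were *Dusp16* (−0.48), a MAP kinase phosphatase, *Eno3* (−0.44), an enolase, *Ceacam1* (−0.32), an adhesion receptor, *Cd36* (−0.32), a scavenger receptor, and *Pou2f2* (−0.30), a transcription factor of the B lineage. Not all of the 16 genes are particular to monocytes, and with PBS *Pou2f2* averaged 444 CPM and *Ceacam1* 118 CPM, far above the 5 genes.

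Other genes of the list did not pass the test. *Nr4a1*, the nuclear receptor on which these cells depend, stood at −0.13 (SE 0.12), *Cebpb*, a transcription factor, at −0.23 (SE 0.19), *Spn* (CD43) at 0.03 (SE 0.12), and *Gngt2*, a G protein subunit, at 0.10 (SE 0.08). *Ear2*, an eosinophil-type ribonuclease, stood at −1.06 (SE 0.45, edgeR adjusted p = 0.130), with 3.04, 1.75, and 4.14 CPM for PBS and 1.43, 2.3, and 0.628 CPM for OVA NPs. *Fabp4* was too low to be tested. Of the 7 decreases, the 4 of *Ceacam1*, *Cx3cr1*, *Dusp16*, and *Pou2f2* were still called without PBS replicate 3. Without OVA NP replicate 2 or without PBS replicate 1 the call for *Cx3cr1* was lost.

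With soluble OVA, 8 of 14 tested genes of the list fell and 0 rose, at a median of −0.45. *Cx3cr1* measured 1.22, 3.06, and 0.769 CPM (−2.27, SE 0.45, edgeR adjusted p = 0.0104) and *Ear2* 1.45, 1.08, and 0.275 CPM (−1.59, SE 0.47, edgeR adjusted p = 0.0352). Both lay below every PBS library. *Itgax* stood at −0.96, *Dusp16* at −0.56, *Ceacam1* at −0.51, *Cd36* at −0.47, *Eno3* at −0.42, and *Itgal*, the LFA-1 integrin chain, at −0.26. Without PBS replicate 3, 5 of these calls were left, and the call for *Cx3cr1* was lost without soluble OVA replicate 1.

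**Figure D2:**
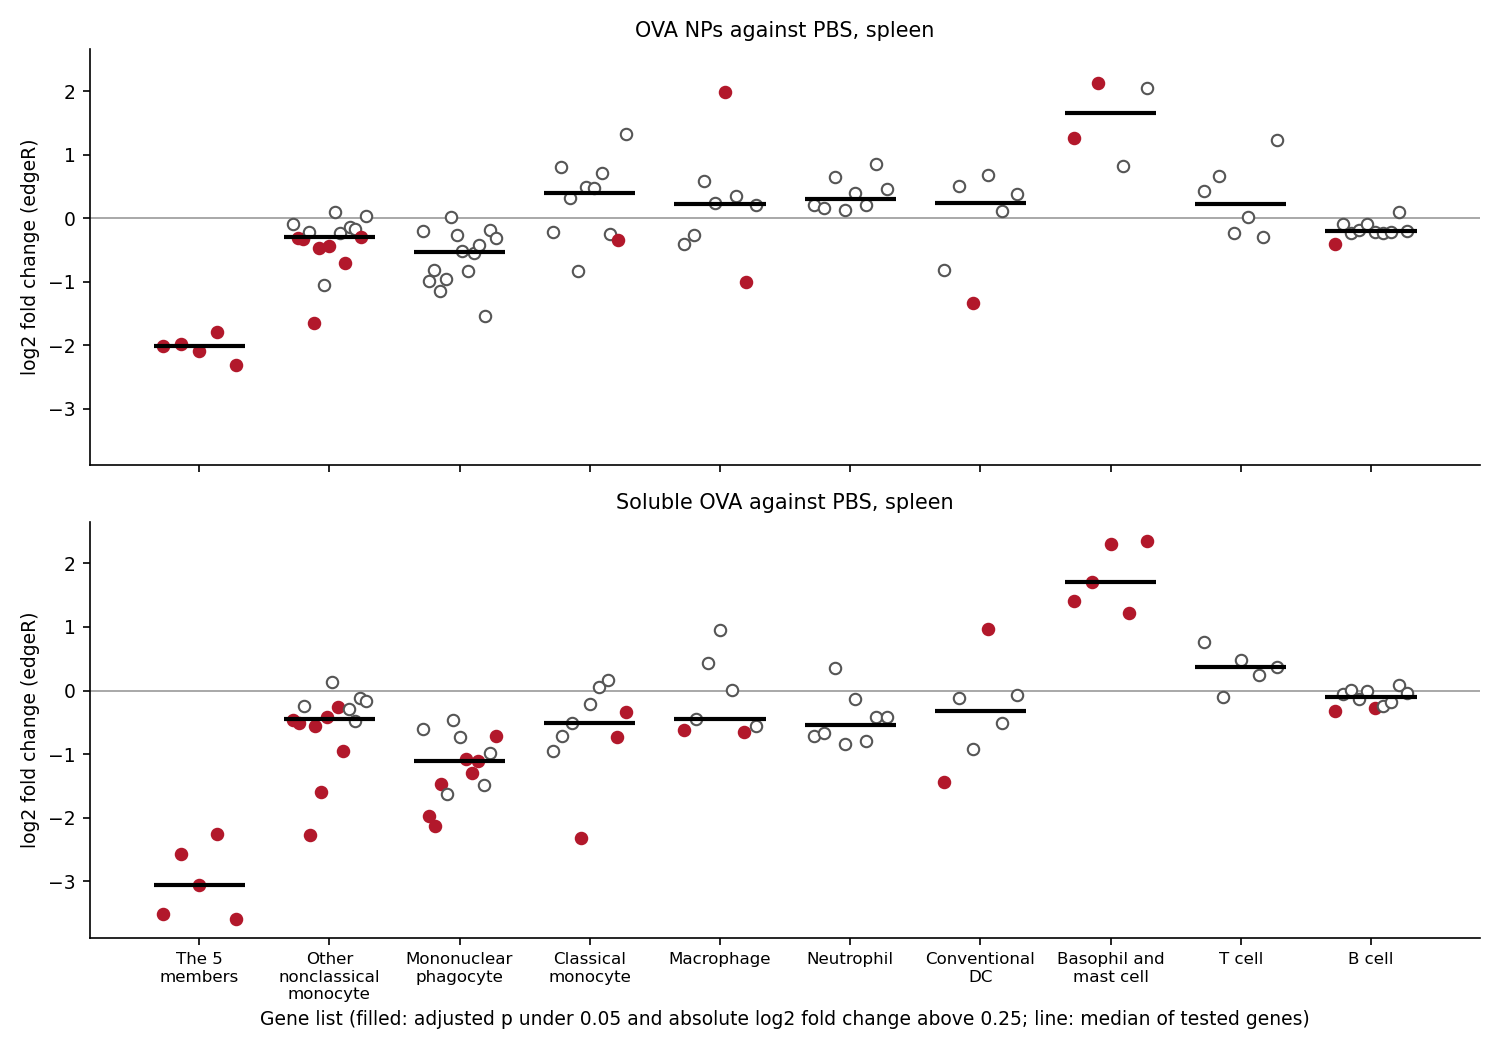
Log2 fold changes (edgeR) of tested genes in 10 lists for OVA NPs against PBS (top) and soluble OVA against PBS (bottom) in the spleen; each point is a gene, filled when called, and the line is the list's median. The 5 genes, which were chosen by the values in the top panel, lie between −2.31 and −1.80 there and between −3.59 and −2.26 below, and the phagocyte genes have 0 filled points in the top panel and 7 in the bottom panel. For the 5 genes the filling is no test, since the PBS libraries of both panels took part in the choice.

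Genes shared by mononuclear phagocytes differed in the spread of their values. After OVA NPs, 0 of 14 tested phagocyte genes were called by edgeR, although 13 had a negative fold change, 4 had an unadjusted p under 0.05, and DESeq2 called 1. Without PBS replicate 2 the edgeR count was 3, and without OVA NP replicate 1 it was 1. The median was −0.53. *Csf1r*, the receptor for the growth factor of monocytes, measured 21.7, 14.7, and 35.0 CPM with PBS and 17.8, 12.9, and 6.32 CPM after OVA NPs, with overlap (−0.96, SE 0.53, edgeR adjusted p = 0.305). After soluble OVA, 7 of 13 fell, with a median of −1.11, including the C-type lectins *Clec4a3* (−2.12), *Clec4a1* (−1.97), and *Clec7a* (−1.46) and the Fc receptor *Fcgr4* (−1.30). That count rested on single libraries: it was 2 without soluble OVA replicate 1 or 3, 3 without PBS replicate 1, 4 without PBS replicate 3, and 11 without PBS replicate 2. *Csf1r* stood at −1.63 (edgeR adjusted p = 0.0785) after soluble OVA, and *Lyz2*, which encodes lysozyme, at −1.49 (edgeR adjusted p = 0.152).

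Classical monocyte genes had a positive median after OVA NPs (0.39) and a negative one after soluble OVA (−0.51). Of 10 tested, 1 was called after OVA NPs, as lower. *Ly6c2*, which defines classical monocytes, measured 15, 13.3, and 16.6 CPM with PBS and 32.2, 24.6, and 16.6 CPM after OVA NPs (0.71, SE 0.24, edgeR adjusted p = 0.0925). OVA NP replicate 3 was the lowest of its group for *Ly6c2*, *Csf1r*, *Lyz2*, and *S100a9*, and its phagocyte sum was 70.7 CPM against 193 and 240 CPM. Without that library, 3 classical monocyte genes were called as higher. The median of the 5 nonclassical genes, which these libraries chose, was −1.83 without it. After soluble OVA, 3 of 9 fell, among them *Fn1* (fibronectin, −2.32) and *Mgst1* (−0.73), and 1 was left without PBS replicate 1.

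**Figure D3:**
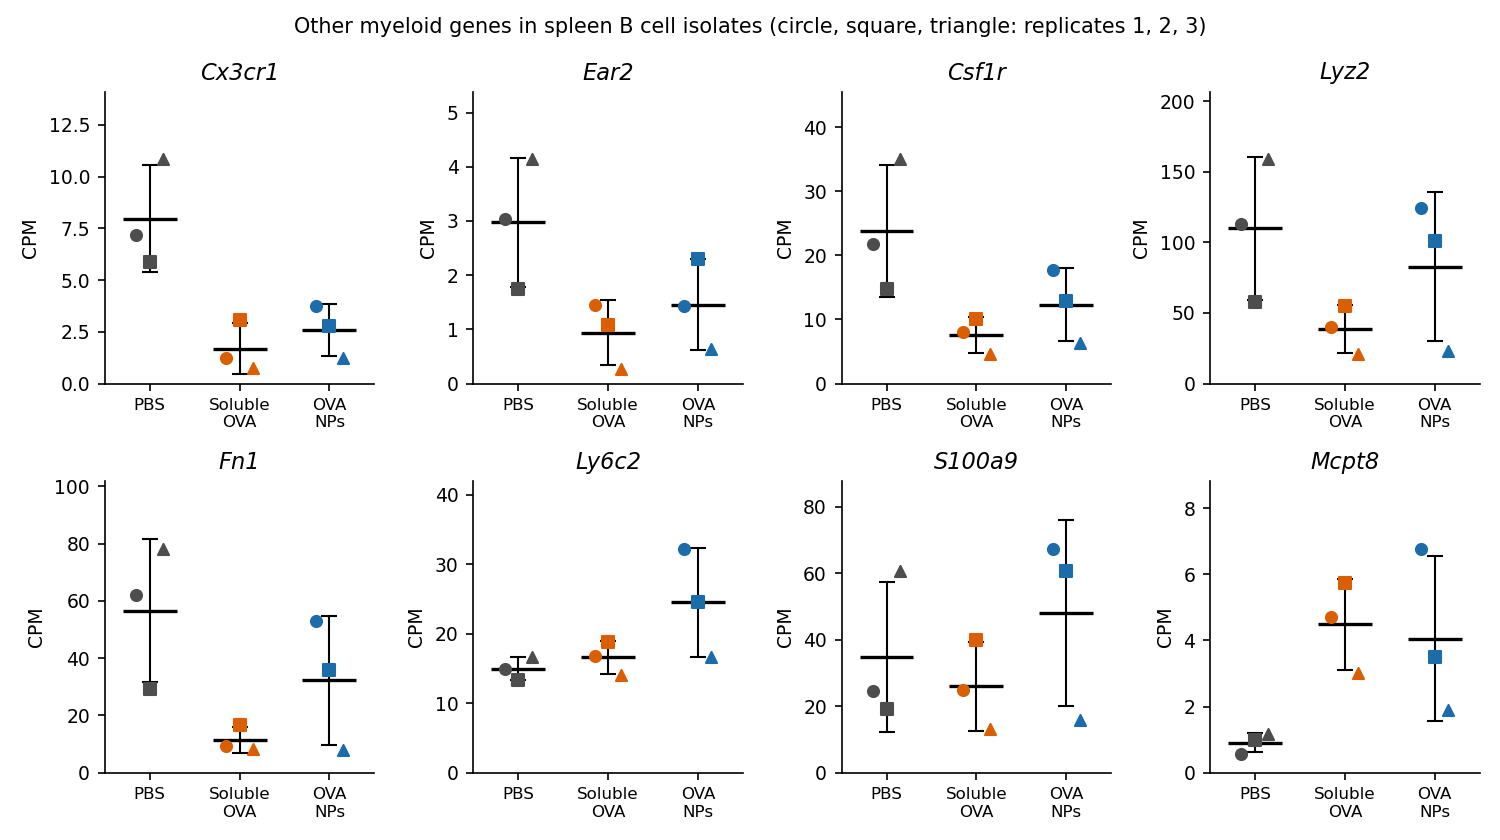
Expression (CPM, linear axis from 0, a separate scale for each gene) of 8 other myeloid genes in the 9 spleen libraries, with points for libraries, marked by replicate number, and bars for the mean ± SD of 3. *Cx3cr1* falls in both OVA groups without overlap, *Csf1r* and *Lyz2* overlap between PBS and OVA NPs, *Ly6c2* has its 2 highest libraries after OVA NPs, and *Mcpt8* is higher in both OVA groups.

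Other cell types gave the following values in the same isolates. Neutrophil genes summed to between 81.0 and 228 CPM with PBS, 65.5 and 268 CPM after OVA NPs, and 72.0 and 167 CPM after soluble OVA, and edgeR called 0 of 8 in either comparison (0 with an unadjusted p under 0.05, and 0 by DESeq2). Without 1 library, the neutrophil count reached 1 at most. Of 15 macrophage genes, 8 were tested after OVA NPs and 7 after soluble OVA, and *C1qa* had 0 to 3 counts in every spleen library. The mannose receptor *Mrc1* rose after OVA NPs (1.99) and the red pulp factor *Spic* fell (−1.0), whereas *Spic* (−0.65) and *Adgre1* (F4/80, −0.61) fell after soluble OVA. The call for *Adgre1* was lost without soluble OVA replicate 3 and without PBS replicate 1 or 3. Among conventional dendritic cell genes, *Clec9a* fell after OVA NPs (−1.33), a call lost in 6 of 10 alternatives (those without OVA NP replicate 1, 2, or 3 and without PBS replicate 1 or 3 among them). After soluble OVA *Cd209a* was lower (−1.44) and *Flt3* higher (0.97), and the call for *Cd209a* was lost without soluble OVA replicate 2 or 3 and without PBS replicate 1 or 3. Of 39 genes of plasmacytoid dendritic cells, T cells, NK cells, erythroid cells, and platelets, edgeR called 0 of 21 tested after OVA NPs (3 with an unadjusted p under 0.05, and 1 by DESeq2). After soluble OVA it called 1 of 20. B cell genes were lower after OVA NPs without overlap for 9 of 10, where 21.4% of all genes were, at a median of −0.21. *Blk* (−0.40) was called, and 5 others, *Cd22*, *Cd79a*, and *Cr2* among them, had an edgeR adjusted p between 0.0271 and 0.0385 but a fold change short of 0.25. B cell genes gave 2 calls after soluble OVA, *Blk* (−0.32) and *Cr2* (−0.27). Without OVA NP replicate 3, 6 were called after OVA NPs, and without soluble OVA replicate 3 or PBS replicate 2 or 3, 1 was called after soluble OVA.

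Basophil and mast cell genes were higher in the OVA groups, where 8.6% (OVA NPs) and 10.5% (soluble OVA) of all genes were called as higher. The basophil protease *Mcpt8* measured 0.581, 1.00, and 1.16 CPM with PBS, 6.78, 3.51, and 1.88 CPM after OVA NPs, and 4.70, 5.74, and 3.02 CPM after soluble OVA. It was higher in all libraries of both OVA groups, by 2.13 (SE 0.47) and 2.31 (SE 0.32) on the log2 scale. After soluble OVA all 5 genes of the list rose, and after OVA NPs *Mcpt8* and *Cpa3* (1.26), a mast cell carboxypeptidase, rose of 4 tested. Without OVA NP replicate 3 the latter count was 5, without PBS replicate 1 or 2 it was 1, and without soluble OVA replicate 2 the former was 3. The part of these cells in the decreases of the 5 genes was not tested.

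Relatives of the 5 genes were compared within their families. In the CD300 family, all 6 tested genes other than *Cd300e* had negative fold changes after OVA NPs, and 1 passed the test, *Cd300ld* (−1.22, SE 0.36, edgeR adjusted p = 0.0273). *Cd300ld*, an activating receptor, measured 1.83, 1.29, and 2.84 CPM with PBS and 0.952, 0.691, and 0.864 CPM after OVA NPs, and the groups did not overlap. After soluble OVA 5 of these 6 fell, namely *Cd300lb* (−2.80), *Cd300lg* (−2.50), *Cd300c2* (−2.09), *Cd300ld* (−1.88), and *Cd300a* (−1.12). The inhibitory *Cd300lf*, at −0.15 and −0.25, did not pass either test. After OVA NPs, the call for *Cd300ld* was lost without OVA NP replicate 2 or without PBS replicate 1 or 3, and *Cd300lb* was called as well without PBS replicate 2. After soluble OVA, 3 of the 5 calls were left without soluble OVA replicate 1 or 3 or without PBS replicate 3. Of the TREM genes tested, *Trem1* stood at −0.74, *Treml2* at −0.15, and *Trem3* at 0.61 after OVA NPs, and none of these was called. The adhesion receptor *Adgre5* (CD97), which lymphocytes express, fell after OVA NPs (−0.50) and soluble OVA (−0.58). The metal transporter *Slc11a2* was at 0.30 (edgeR adjusted p = 0.0540) after OVA NPs.

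The genes most like the 5 across the 9 spleen libraries, by Pearson's r with their mean log2 CPM, were *Wls* (0.984), *St8sia6* (0.981), *Cd300ld* (0.980), *Pacs1* (0.976), *Ppfibp2* (0.973), *Il9r* (0.968), *Cd9* (0.967), *Icosl* (0.964), *Plekhg3* (0.963), and *Lpcat1* (0.962), among 11124 genes. Several of these were far more abundant than the 5, with *Icosl* at a mean of 373 CPM and *Lpcat1* at 127 CPM. Of the 10, *Cd300ld* was on a list of myeloid genes or relatives. Because PBS and OVA libraries differ throughout, these values reflect the treatment groups as well as the genes. When deviations from each group's mean were used over all 18 libraries, the most alike were *Rcn3* (0.915), *Snrnp35* (0.846), *Nav1* (0.820), *Opn3* (0.813), *Jph1* (0.808), *Tifab* (0.803), *Igfbp5* (0.799), and *Nectin1* (0.797). On the latter measure, the median r was 0.197 for the other nonclassical genes and 0.0562 for all genes. It was higher for 5 lists of other cells, at 0.519 for basophil and mast cell, 0.478 for neutrophil, 0.470 for conventional dendritic cell, 0.457 for classical monocyte, and 0.437 for phagocyte genes. It was 0.194 for T cell, 0.170 for macrophage, and −0.213 for B cell genes. In Peyer's patches the 5 genes did not follow each other (median pairwise r −0.0403), and *Ace* varied 6.21-fold there. Likeness to their mean over 18 libraries is therefore not likeness to each of the 5.

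In Peyer's patches, the 5 genes did not form a common pattern. *Cd300e* had 9 counts in all 9 libraries together, against 217 counts in the spleen. It was at 0 in 7 libraries, with 1 count in PBS replicate 1 and 8 counts (0.353 CPM) in OVA NP replicate 3, and it did not pass the count filter. With soluble OVA, where Peyer's patches had 0 counts, the spleen (17 counts) was at least 7.64-fold higher, taking the limit as 3 counts over the group.

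*Treml4* measured 1.80, 0.846, and 1.20 CPM with PBS, 2.54, 0.852, and 1.59 CPM after OVA NPs, and 0.566, 0.564, and 0.906 CPM after soluble OVA. OVA NP libraries overlapped both other groups. *Adgre4* measured 3.16, 2.54, and 3.64 CPM with PBS, 2.97, 2.78, and 4.28 CPM after OVA NPs, and 2.60, 2.18, and 1.77 CPM after soluble OVA. Each of the OVA NP values was above each of those for soluble OVA, a separation that 24.9% of all genes tested between these groups showed.

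*Slc11a1* measured 1.68, 0.776, and 0.572 CPM with PBS, 0.942, 1.21, and 0.617 CPM after OVA NPs, and 1.40, 0.902, and 1.28 CPM after soluble OVA, and all groups overlapped. *Ace* was far more abundant than in the spleen. It measured 79.8, 40.0, and 112 CPM with PBS, 215, 90.0, and 122 CPM after OVA NPs, and 51.4, 248, and 160 CPM after soluble OVA. The lowest Peyer's patch library was above the highest spleen library (30.9 CPM), and the treatment groups overlapped. With soluble OVA alone, 29% of all genes were higher in Peyer's patches without overlap.

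**Figure D4:**
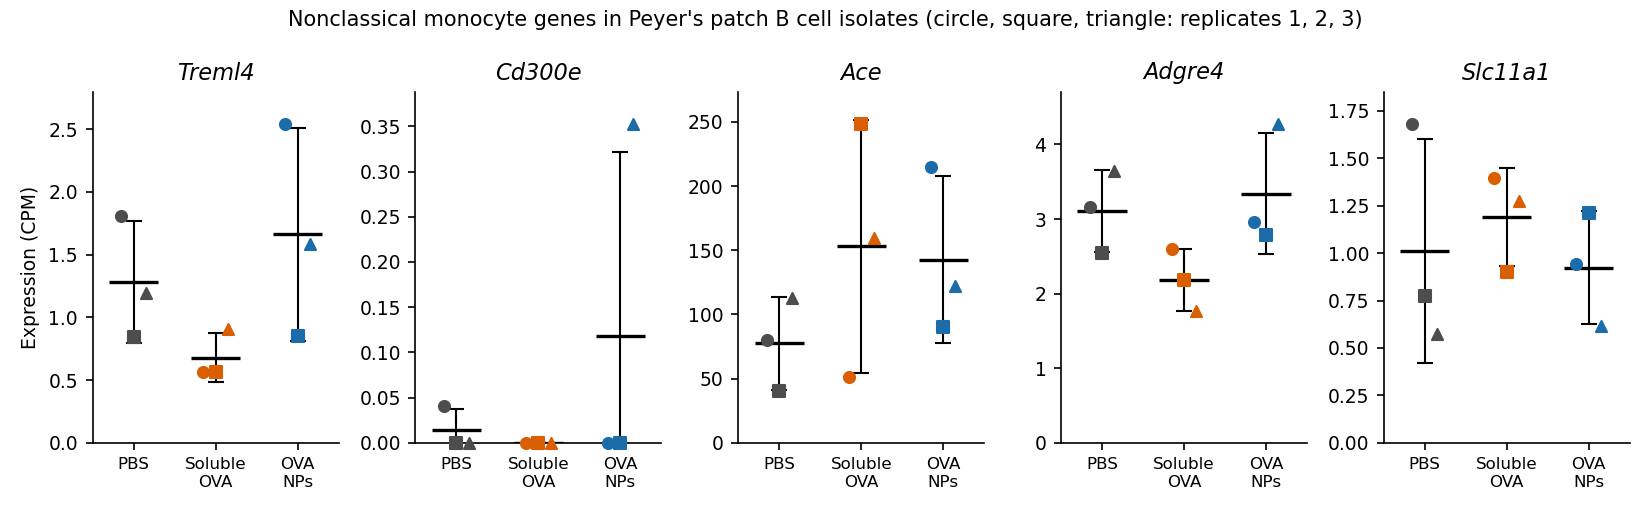
Expression (CPM, linear axis from 0, a separate scale for each gene) of the 5 genes in 9 Peyer's patch libraries, with points for libraries, marked by replicate number, and bars for the mean ± SD of 3. Treatment groups overlap for *Treml4*, *Ace*, and *Slc11a1*, *Adgre4* is higher after OVA NPs than after soluble OVA in every library, and *Cd300e* lies at 0 in 7 of 9 libraries.

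The Peyer's patch libraries did not take part in the choice, and the 4 genes that passed the filter were tested there. After OVA NPs against PBS, 0 of 4 were called, with 0 at an unadjusted p under 0.05 and 0 by DESeq2, where 0% of 15798 genes were called in all. The log2 fold changes were 0.89 (SE 0.50) for *Ace*, 0.36 (SE 0.47) for *Treml4*, 0.11 (SE 0.28) for *Adgre4*, and −0.14 (SE 0.51) for *Slc11a1*, with edgeR adjusted p between 0.602 and 0.939. 

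After soluble OVA against PBS, 0 of 4 were called by edgeR or DESeq2, and 0 had an unadjusted p under 0.05, although 27.4% of 15792 genes were called. *Treml4* stood at −0.92 (SE 0.44, edgeR adjusted p = 0.159), *Adgre4* at −0.49 (SE 0.29), *Slc11a1* at 0.23 (SE 0.48), and *Ace* at 1.01 (SE 0.72). Between the OVA groups, 0 of 4 were called by edgeR or DESeq2 and 1 had an unadjusted p under 0.05, where 30.1% of 15599 genes were called. That gene was *Treml4*, higher after OVA NPs than after soluble OVA by 1.27 (SE 0.47, edgeR adjusted p = 0.0679). Without OVA NP replicate 2 it was called (1.53, edgeR adjusted p = 0.0407), and over all alternatives its adjusted p ran from 0.0407 to 0.287. *Adgre4* stood at 0.59 (SE 0.30), *Slc11a1* at −0.39 (SE 0.41), and *Ace* at −0.11 (SE 0.66).

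The tissues were compared in mice given soluble OVA, whose libraries the choice did not use. *Ace* was higher in Peyer's patches by 6.27 (SE 0.91, edgeR adjusted p = 0.00489) on the log2 scale, and *Slc11a1* by 1.38 (SE 0.52, edgeR adjusted p = 0.0468). *Treml4* (1.15, SE 0.58, edgeR adjusted p = 0.120) and *Adgre4* (0.69, SE 0.46, edgeR adjusted p = 0.229) did not pass the test. The 2 calls of 4 compare with 51.1% of 15415 genes called between the tissues, and 26.7% called as higher in Peyer's patches. *Ace* passed in all 13 alternatives. *Slc11a1* lost its call in 7 of 12, without soluble OVA replicate 1 or 3 of the spleen (adjusted p = 0.163 and 0.155 by edgeR), without any 1 Peyer's patch library, with the replicate block, and with DESeq2. *Adgre4* was called in 1 of 13, without soluble OVA replicate 2 of the spleen. The order of the tissues was not the same with PBS. There, mean *Slc11a1* was 2.31 CPM in the spleen and 1.01 CPM in Peyer's patches. *Treml4* (3.85 and 1.28 CPM) and *Adgre4* (8.49 and 3.11 CPM) had this order too, unlike *Ace* (24.2 and 77.4 CPM). After OVA NPs, each of these means was higher in Peyer's patches. These spleen values took part in the choice, and the orders were not tested.

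*Ace* in Peyer's patches followed transcripts of enterocytes, the absorptive cells of the gut lining. A list of 12 enterocyte genes, chosen after the *Ace* values were seen and hence not tested, summed to between 570 and 4049 CPM in Peyer's patch libraries and between 0.650 and 2.68 CPM in spleen libraries. Across the 9 Peyer's patch libraries, log2 *Ace* and the log2 sum had a Pearson's r of 0.989 and a Spearman's rho of 0.983, and r was 0.980 over 7 libraries without the 2 farthest from the median of the sum. *Ace* came to between 5.33% and 7.01% of the sum in each library, while *Ace* itself varied 6.21-fold. For the other genes, r with the sum was 0.222 (*Treml4*), 0.00047 (*Cd300e*), −0.0849 (*Adgre4*), and −0.192 (*Slc11a1*). In the spleen, where 5 of the 12 enterocyte genes were at 0 in every library, *Ace* came to between 100 and 3018 CPM for every 100 CPM of the sum. The libraries share depth and normalization, and the part of enterocyte RNA in the Peyer's patch values was not tested.

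**Figure D5:**
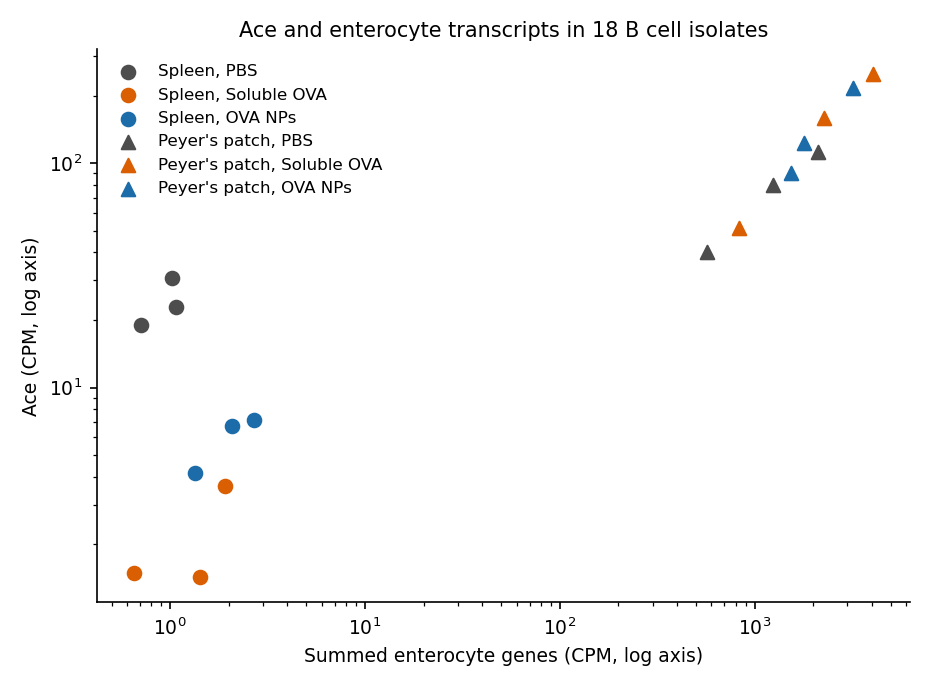
*Ace* against the sum of 12 enterocyte genes in the 18 libraries (both in CPM on log axes); circles are spleen, triangles are Peyer's patches, and colors are treatments. The 9 Peyer's patch libraries lie along a line over a range of 570 to 4049 CPM, whereas the 9 spleen libraries lie at or below 2.68 CPM on the horizontal axis and are ordered by treatment on the vertical axis.

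Among the other nonclassical monocyte genes in Peyer's patches, edgeR called 0 of 16 after OVA NPs against PBS (2 with an unadjusted p under 0.05, and 0 by DESeq2). *Cx3cr1* measured 1.48, 1.69, and 1.46 CPM with PBS and 3.30, 3.45, and 3.57 CPM after OVA NPs, without overlap (1.17, SE 0.26, edgeR adjusted p = 0.255). In this comparison 6.85% of all genes were higher after OVA NPs without overlap. After soluble OVA, 7 of 16 fell and 0 rose, where 27.4% of all genes were called and 13.9% as lower. They were led by *Nr4a1* (−2.41), *Pglyrp1* (−1.15), a peptidoglycan recognition protein, *Cebpb* (−0.87), and *Eno3* (−0.80). The count was 3 without soluble OVA replicate 2 or 3 and 4 without PBS replicate 2 or 3. *Nr4a1* measured 558, 1162, and 573 CPM with PBS, 222, 98.0, and 107 CPM after soluble OVA, and 98.8, 729, and 686 CPM after OVA NPs. Its PBS mean was 764 CPM here and 44.1 CPM in the spleen, and not all genes of the list are particular to monocytes. Other lists fell in the soluble OVA libraries, with 17 of 60 genes of the 6 myeloid lists called as lower, and the B cell genes *Cr2* (−0.70), *Cd22* (−0.48), *Cd79a* (−0.39), and *Blk* (−0.30). Between the OVA groups, 4 of 15 were higher after OVA NPs (*Cx3cr1* 1.19, *Pglyrp1* 1.00, *Itgax* 0.97, and *Eno3* 0.81), where 13.8% of all genes were called as higher. That count ran from 3 to 6 without 1 library. Genes of other cells were higher as well, with 31 of 60 genes of the 6 myeloid lists called as higher, among them 9 of 13 phagocyte genes and 6 of 9 conventional dendritic cell genes. Of 25 tested genes of plasmacytoid dendritic cells, T cells, NK cells, erythroid cells, and platelets, 12 were called as higher, and T cell genes summed to between 37.9 and 60.8 CPM against 17.0 to 23.0 CPM. The part of these cells in the values of *Treml4* and *Adgre4* was not tested. *Apoc2*, an apolipoprotein on the list, was at 8.82 to 91.9 CPM in Peyer's patches and below 0.56 CPM in the spleen, a tissue difference like that of *Ace*.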

How the data were processed

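RNA-Seq libraries of B cells from 6 groups (18 libraries) were analysed. Per the labels and the paper's methods, the authors trimmed reads with Cutadapt 2.3, checked them with FastQC 0.11.8 and MultiQC 1.7, mapped them to GRCm38 with STAR 2.7.8a, and estimated gene counts with RSEM 1.3.3. The authors deposited expected counts from RSEM, not normalized, and every value was a whole number. Gene positions and exon lengths came from an annotation of GRCm38, and promoter sequences from RefSeq (GRCm38.p6).

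CPM was computed from library totals (14177253 to 30052297 counts), and correlations used log2 CPM with a prior count of 2. Each comparison was fitted to its 6 libraries with edgeR 4.0.16 in R 4.3.3 (TMM, filterByExpr with minimum counts of 10 per gene and 15 in total, robust quasi-likelihood F test). P values were adjusted by Benjamini-Hochberg over all tested genes. The SE was derived from the log2 fold change and its F statistic. A call needed both an adjusted p under 0.05 and a log2 fold change beyond 0.25 in size. The difference of treatment effects between tissues was fitted as an interaction in 12 libraries. Steps were tested on simulated data. For edgeR, 200 genes with a mean of at least 50 counts were changed, at a dispersion of 0.02. *Treml4*, *Cd300e*, and *Slc11a1* had lower mean counts in Peyer's patches, so the simulation does not cover them. *Ace* varied more between Peyer's patch libraries than this dispersion assumes (77.4 ± 36.3 CPM with PBS, SD, n = 3), so it is not covered either. *Adgre4* had 12 to 39 counts in the soluble OVA libraries of the spleen, and its comparison between tissues is not covered.

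The 5 genes, the gene lists, and the tests were chosen with earlier results of these data known. Named genes were the 5, all other nonclassical monocyte genes, the 3 most abundant and up to 4 called genes with the largest fold changes of every other list, their family members, and the 10 most alike. Alternatives were DESeq2 1.42.0, its size factors, other count filters, all 18 libraries in 1 fit, no fold change cutoff, a replicate block, and leaving out each library. Same-numbered libraries correlated in their deviations at r between −0.383 and 0.237, and the labels do not say what a number shares, so no block was used. Some genes that the rule names are not reported here.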

Additional observations from a re-analysis of the deposited data

Results flagged for a closer look

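Of the genes beside the 5, *Cx3cr1* and *Itgax* were singled out because their response to treatment differed between the tissues, by a fit of 12 libraries with a term for the difference between the tissues' effects. This test was added after the data had been seen, and *Cx3cr1* came just after the 5 genes among the decreases in the spleen. The effect of OVA NPs against PBS on *Cx3cr1* was higher in Peyer's patches than in the spleen by 2.82 on the log2 scale (SE 0.47, edgeR adjusted p = 0.0060). For soluble OVA against PBS the difference was 2.23 (SE 0.57, edgeR adjusted p = 0.0282). For *Itgax* and OVA NPs it was 0.97 (SE 0.21, edgeR adjusted p = 0.0170). Among all genes, 4.42% passed this test for OVA NPs and 6.84% for soluble OVA. *Cx3cr1* measured between 1.26 and 10.8 CPM in PBS and OVA NP libraries of the spleen and between 1.46 and 3.57 CPM in those of Peyer's patches. The test was not repeated without single libraries. The 5 genes themselves were not tested in this way, since their spleen values chose them.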

How the results depend on the processing

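In the spleen, the median log2 fold change of the 5 genes ran from −2.19 to −1.64 for OVA NPs against PBS and from −3.18 to −2.88 for soluble OVA against PBS when each library was left out. For OVA NPs against soluble OVA, where 3 of them passed the count filter, the median ran from 0.77 to 1.5. Of 78 genes on the 6 myeloid lists, 11 were called for OVA NPs against PBS (8 to 18 without 1 library, 21 without a count filter) and 22 for soluble OVA against PBS (14 to 27 without 1 library). Between the OVA groups 0 were called, by DESeq2 too (0 to 3 without 1 library, 2 without a count filter). In Peyer's patches, 0 of the tested genes among the 5 were called against PBS for either treatment without any 1 library. It ran from 0 to 1 for OVA NPs against soluble OVA, with 1 call in a fit of all 18 libraries. That call was none of the 4 genes tested in Peyer's patches alone. The remaining gene, *Cd300e*, had 8 counts in 1 OVA NP library there and 0 in every soluble OVA library. Between tissues the count of calls ran from 1 to 3, with 1 at a minimum of 10 counts in every library. The signs of 5 small fold changes in Peyer's patches were not stable. Without 1 library, OVA NPs against PBS gave −0.067 to 0.70 for *Treml4*, −0.10 to 0.23 for *Adgre4*, and −0.43 to 0.48 for *Slc11a1*. Soluble OVA against PBS gave −0.013 to 0.85 for *Slc11a1*, and OVA NPs against soluble OVA gave −0.59 to 0.43 for *Ace*. The cause was not tested. Of the 10 genes most alike in deviations, 5 stayed with a prior count of 0.5.

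With the replicate block, 14 myeloid genes were called for soluble OVA against PBS in the spleen, *Ace* stood at 0.0075 for OVA NPs against soluble OVA in Peyer's patches, and 1 of the 5 genes was called between tissues. Same-numbered libraries did not pair, and the block changed no other count of calls by more than 1.5 times.

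With 3 libraries a group, and 3 to 18 counts of *Cd300e* in OVA libraries of the spleen, small differences could not be shown. Fits without 1 library assume that the rest of its group varies like the others. Dissociation differed between the tissues, so tissue and preparation cannot be told apart.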
